A study of Mus musculus with 12 samples.

Results

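The genes of vitamin A storage, transport, oxidation, breakdown and signalling were examined in whole liver of mice of the intragastric model of alcohol-associated steatohepatitis (ASH). The set was defined by name and held 9 genes, namely Rbp4, Lrat, Retsat, Rdh16, Dhrs3, Bco1, Cyp26a1, Cyp26b1 and Rarb. Each was matched through its GENCODE M21 symbol to 1 of the 54232 Ensembl IDs of the count table, and all 9 were among the 14168 genes with enough reads to be tested. RNA was sequenced from 5 pair-fed controls (PF) and 7 mice fed alcohol (AF), all male C57BL6/J and labelled with an age of 8-week, and each mouse gave 1 library. All mice received a high-fat liquid diet, isocaloric between the groups, by the intragastric route for 8 weeks, together with a solid Western diet rich in cholesterol eaten ad libitum, after a lead-in on this solid diet or on regular chow (which of them each mouse had is not given in the sources used here). In AF mice the liquid diet carried ethanol up to 27 g/kg/day, and a binge of 5 g/kg was given every week from the second week on. Livers were taken one day after the last binge, so that chronic feeding and the last binge cannot be told apart. The comparison asks which genes differ between livers of mice fed this diet with and without alcohol.

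Vitamin A reaches the liver from the gut as retinyl ester or is cleaved from carotenoids, and most of it is kept as retinyl ester in the lipid droplets of hepatic stellate cells. When the body needs it, hepatocytes release retinol bound to a plasma carrier. Inside cells retinol is oxidised reversibly to retinal and then irreversibly to retinoic acid, which activates nuclear receptors and is cleared by cytochromes P450 of the CYP26 family. Stellate cells lose these droplets when they turn into matrix-producing cells in an injured liver.

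Depth was similar in both groups, with 24129900 to 28594027 reads on genes per PF liver (median 26288205) and 25099033 to 30578639 per AF liver (median 28305290). Levels are given as CPM, read counts scaled to a common library size with edgeR's TMM factors, which correct library totals for the share taken by genes that differ. Factors of PF livers lay between 0.832 and 0.901, and those of AF livers between 0.880 and 1.36. AF and PF livers were compared gene by gene in edgeR (quasi-likelihood), with Benjamini-Hochberg adjustment over all 14168 genes and a threshold of 0.05. Of these genes 39.8% passed in either direction, 22.0% higher and 17.8% lower in AF livers. A gene is said to have risen or fallen only where it passed this test, and log2 fold changes are AF minus PF. Each mouse is 1 sample, and the labels do not say whether mice shared a cage or litter.

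Of the 9 retinoid genes, 3 rose in AF livers (33.3%), against 22.0% of all genes, and 0 fell, against 17.8%. The 3 that rose were Lrat, Retsat and Bco1. On library totals, without TMM, Rbp4 and Rarb were called higher as well, 5 in all, while 6458 of the 14168 genes were called higher and 938 lower. With limma-voom, and in 9 of the 12 fits that left out 1 liver, 2 genes rose, since Bco1 did not pass. By unadjusted p under 0.05 in edgeR, 4 genes were higher (27.3% of all genes were) and 0 lower (22.3%), the addition being Rarb. DESeq2 called 0 lower, while limma-voom called 1, Cyp26a1, as did edgeR without AF liver 2. The median log2 fold change of the set was 0.20, beside 0.04 over all genes tested. A single gene of the set, Lrat, separated the groups without overlap, which 17.7% of all genes did (8.20% with all AF livers above and 9.49% with all AF livers below). In Lrat, Retsat, Rarb and Cyp26a1 at least 6 of the 7 AF livers lay on 1 side of all PF livers, as in 33.4% of all genes.

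**Figure D1:**
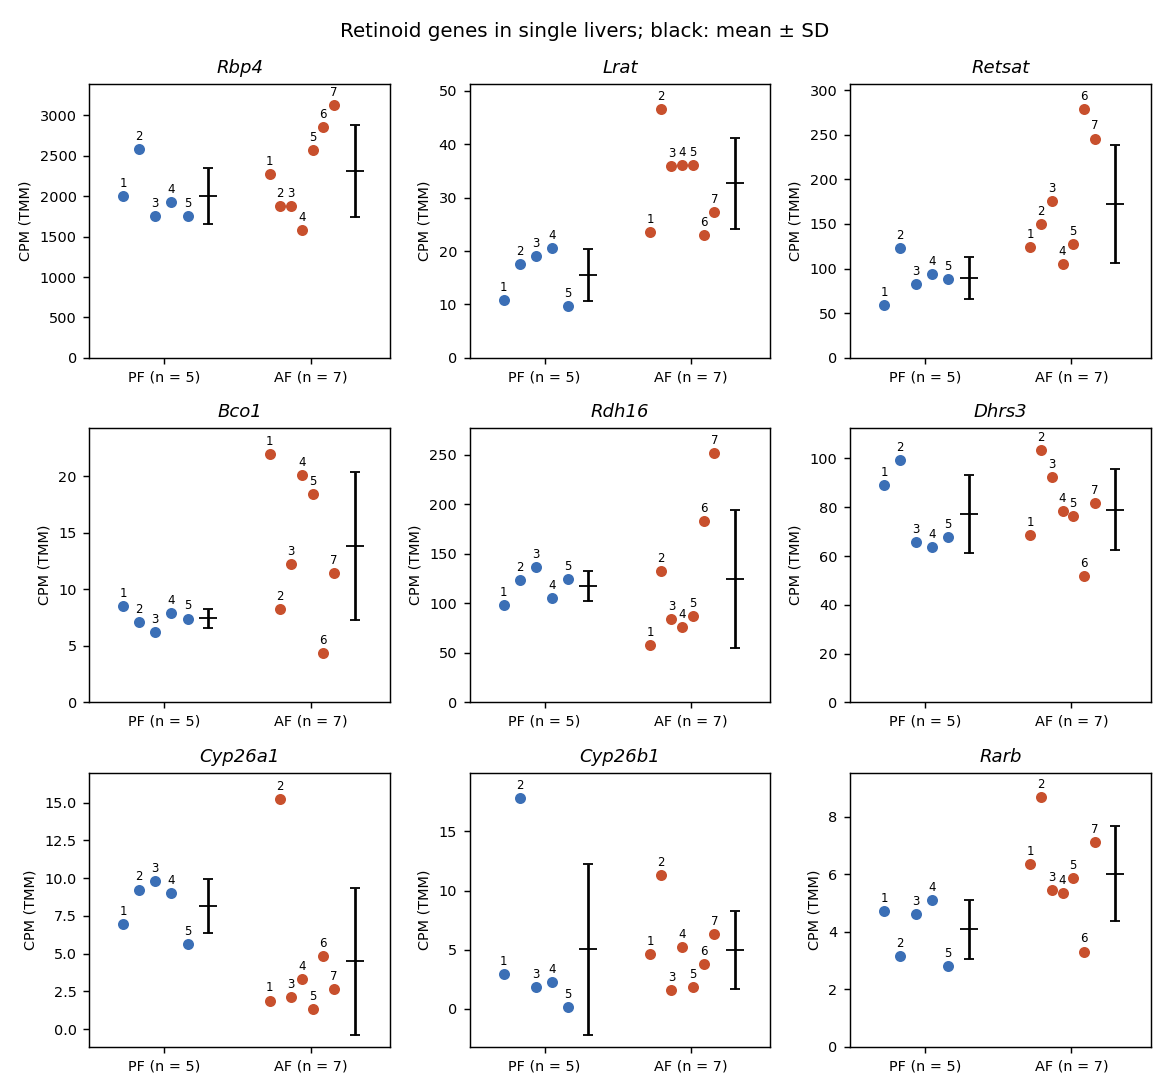
Level in CPM (linear axes, TMM scaled) of each of the 9 retinoid genes in every liver, with the replicate number above each point and the mean ± SD of the group as a black bar (PF, 5 livers, blue; AF, 7 livers, orange). All AF livers lie above all PF livers for Lrat, 6 of 7 do for Retsat and Rarb, and 6 of 7 AF livers lie below all PF livers for Cyp26a1, with AF liver 2 at 15.2 CPM.

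The upstream sequence of 3 of the genes, for provitamin cleavage, retinoic acid breakdown and the receptor, holds repeats of the kind that nuclear receptors of the retinoid family bind. It is shown because the search described here found such a repeat in no other gene of the set. Receptors of this family bind as pairs to repeated hexamers, and retinoic acid receptors together with RXR prefer direct repeats with 5 bases, and also 2 bases, between the hexamers. RefSeq windows of GRCm38.p6 that span each gene's start, mostly upstream of it, were searched, and all 9 genes matched, with 12 windows. The hexamer AGGTCA was searched on both strands, as well as AGTTCA, along with GGGTCA, and likewise GGTTCA. The sequences run 5′ to 3′ along the gene, end at the base before the RefSeq start that their window is built on, and have the repeat in capitals. For Bco1 and Cyp26a1 this start is 11 and 10 bases from the first base of the gene model used for counting, while for Rarb it is an internal transcript start, 243.7 kb downstream of the first base of the longest transcript. They are from chr8:117095765-117095864 (plus strand), chr19:37697708-37697807 (plus strand) and chr14:16575477-16575576 (minus strand).
Bco1: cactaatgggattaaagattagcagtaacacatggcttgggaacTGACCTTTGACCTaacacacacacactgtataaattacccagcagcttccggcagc
Cyp26a1: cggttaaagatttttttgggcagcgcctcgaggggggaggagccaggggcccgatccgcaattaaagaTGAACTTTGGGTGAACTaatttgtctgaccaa
Rarb: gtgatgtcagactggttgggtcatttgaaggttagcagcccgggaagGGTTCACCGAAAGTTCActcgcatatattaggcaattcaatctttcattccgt

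In Rarb the repeat with 5 bases between the hexamers reads along the gene, from 53 to 37 bases before this internal start. In Cyp26a1 a repeat with the same spacing reads against the gene, as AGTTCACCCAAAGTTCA on the other strand, from 32 to 16 bases before the start. This spacing was found in 32 of 32851 RefSeq windows (0.0974%). In Bco1 the repeat has 1 base between the hexamers and reads AGGTCAAAGGTCA on the other strand, from 56 to 44 bases before the start, a spacing found in 73 windows (0.222%). A spacing of 2 bases occurred in 88 windows (0.268%) and in 0 windows of the set. A single hexamer, which every such repeat also contains, was present in 43.7% of all windows and in 6 of the 12 windows of the set. These are matches of letters, and no binding was measured.

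Compared per kilobase of exon, Rbp4 stood far above the other genes in both groups, with a mean of 1494 CPM per kb in PF and 1720 CPM per kb in AF livers. In PF livers it was followed by Dhrs3 (26.3 CPM per kb), Retsat (25.3) and Rdh16 (18.9), whose ranges over livers overlapped. Cyp26a1 (4.10 CPM per kb), Bco1 (2.93) and Lrat (2.90) came next and also overlapped, before Cyp26b1 (0.937) and Rarb (0.776). The place of Cyp26b1 rests on PF liver 2, without which its PF mean was 0.338 CPM per kb, below that of Rarb. In AF livers Retsat, with 48.7 CPM per kb, was above Dhrs3 (27.0) and Rdh16. Lrat (6.11 CPM per kb) and Bco1 (5.44) then stood above Cyp26a1 (2.26), although the ranges of these genes overlapped. The ranges of Retsat, Dhrs3 and Rdh16 also overlapped, while the lowest AF value of Rdh16 (9.26 CPM per kb) was above the highest of Lrat (8.71).

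Rbp4 (ENSMUSG00000024990, chr19:38116629-38125281, minus strand) encodes the plasma carrier with which hepatocytes release retinol. It had 2005, 2589, 1753, 1929 and 1755 CPM in PF livers 1 to 5, and a lowest, median and highest value of 1579, 2271 and 3125 CPM in AF livers. The groups overlapped widely, since 2 AF livers were above and 1 was below all PF livers. The means were 2006 ± 344 CPM (SD, n = 5) and 2310 ± 569 CPM (SD, n = 7). The log2 fold change of 0.20 (SE 0.199, 95% interval −0.22 to 0.63) did not pass the threshold (edgeR, adjusted p = 0.432).

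Lrat (ENSMUSG00000028003, chr3:82892579-82903973, minus strand) encodes lecithin retinol acyltransferase, which makes the stored retinyl ester and is, in liver, a marker of stellate cells. Its level was 10.8, 17.5, 19.0, 20.5 and 9.64 CPM in PF livers 1 to 5. In AF livers it was 23.6, 46.6, 35.97, 36.1, 36.2, 23.0 and 27.4 CPM in livers 1 to 7. Every AF liver was above every PF liver, and AF livers 6 and 1 were nearest to the highest PF liver. Lrat rose 2.10-fold between means of 15.5 ± 4.95 CPM in PF (SD, n = 5) and 32.7 ± 8.50 CPM in AF livers (SD, n = 7), with a log2 fold change of 1.07 (SE 0.227, edgeR adjusted p = 0.00294). An exact two-sided permutation test over all splits of the livers into 5 and 7 gave p = 0.00126, the smallest value it can give.

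Markers of stellate cells were read in the same livers. Of 13 markers of quiescent stellate cells (without Lrat), 5 rose in AF livers and the others did not pass, a share called of 38.5% where 22.0% of all genes rose and 39.8% were called in either direction. Their summed level was 133 to 295 CPM in PF and 239 to 332 CPM in AF livers. The 2 with the most reads, Reln and Ecm1, had log2 fold changes of 0.50 and 0.29 that did not pass (edgeR, adjusted p = 0.119 and 0.208). Of 8 markers of activated stellate cells, 7 rose, led in reads by the collagens Col3a1 (29.7 to 176 CPM) and Col1a2 (11.4 to 67.3 CPM), and the sums were 25.1 to 93.5 CPM in PF and 68.3 to 527 CPM in AF livers. On the log2 scale the mean of the quiescent list was higher by 0.58 in AF livers. Relative to that mean, log2 Lrat was 0.45 to 1.39 in PF and 1.13 to 1.97 in AF livers, a difference of 0.51 with overlap between the groups. Relative to desmin (Des), a stellate cell filament gene picked after values were seen, it differed by −0.06. None of these markers was at 0 in all livers. In whole tissue, more cells of a type and more RNA per cell cannot be told apart, and the part of cell numbers in the rise of Lrat was not tested.

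Retsat (ENSMUSG00000056666, chr6:72598475-72608425, plus strand) encodes retinol saturase, which reduces retinol to dihydroretinol. It had 58.8, 124, 82.9, 93.6 and 88.0 CPM in PF livers 1 to 5, and 105, 150 and 279 CPM as lowest, median and highest values in AF livers. Of the AF livers 6 were above all PF livers, and liver 4 was below PF liver 2. Retsat rose, with means of 89.4 ± 23.3 CPM in PF (SD, n = 5) and 172 ± 65.9 CPM in AF livers (SD, n = 7), a log2 fold change of 0.95 (SE 0.257, edgeR adjusted p = 0.0111) and p = 0.00631 in the exact permutation test. AF livers 6 and 7 were highest, with 279 and 246 CPM. A gene model on the opposite strand, Gm45053, shares 650 exon bases with Retsat but had 167 reads in all livers together.

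Bco1 (ENSMUSG00000031845, chr8:117095854-117133720, plus strand) encodes the oxygenase that cleaves beta-carotene into retinal, and in liver it is known from stellate cells. It was low and even in PF livers, with 8.51, 7.09, 6.25, 7.94 and 7.42 CPM. AF livers ran from 4.36 CPM in liver 6 over a median of 12.2 CPM to 22.0 CPM in liver 1. Thus 5 AF livers were above all PF livers, 1 was among them and 1 was below them. The coefficient of variation was 11.5% in PF and 47.3% in AF livers. Bco1 rose, with means of 7.44 ± 0.858 CPM in PF (SD, n = 5) and 13.8 ± 6.54 CPM in AF livers (SD, n = 7), a log2 fold change of 0.90 (SE 0.324, edgeR adjusted p = 0.0414). The exact permutation test gave p = 0.0934, and without any 1 of the PF livers, or of AF livers 1, 3, 4 or 5, the edgeR call was lost (adjusted p up to 0.0893). Without AF liver 6 the permutation test gave a difference of 0.96 (exact p = 0.00649).

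Rdh16 (ENSMUSG00000069456, chr10:127801152-127846565, plus strand) encodes a microsomal retinol dehydrogenase of the liver. PF livers 1 to 5 had 98.6, 123, 136, 106 and 125 CPM. AF livers had 57.5, 132, 84.1, 76.4, 87.0, 183 and 251 CPM in livers 1 to 7. The AF livers thus lay on both sides of the PF livers, with 4 below all of them, 2 above all of them and 1 among them. The means, 118 ± 15.3 CPM (SD, n = 5) and 125 ± 70.1 CPM (SD, n = 7), were close, and the coefficient of variation in AF livers was 56.2%. The log2 fold change of 0.08 had a 95% interval from −0.60 to 0.76 (edgeR, adjusted p = 0.855), and its sign turned without AF liver 6 (−0.04) or AF liver 7 (−0.19). Rdh16 lies among near relatives on its chromosome and shares 381 exon bases with the pseudogene Rdh18-ps (21 reads in all livers together), so reads could be split between copies.

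With TMM scaling, the 2 livers with the highest Rdh16 and Retsat were also those with the highest level of hepatocyte markers among AF mice. The sum of 6 such markers was 104095 CPM in AF liver 6, 103206 CPM in AF liver 7 and 56468 to 78313 CPM in the other AF livers, beside 100071 to 139715 CPM in PF livers. AF livers 6 and 7 also had the lowest TMM factors of the AF livers (0.880 and 0.960). AF liver 3, with 78313 CPM, had a factor of 1.20, and undoing the factors puts its sum above that of AF liver 6. On library totals Retsat was still highest in AF liver 6 and Rdh16 in AF liver 7. The match of these livers with the hepatocyte markers thus depends on the scaling. The markers with the most reads, Alb and Apob, had log2 fold changes of −0.60 and −0.29 that did not pass (edgeR, adjusted p = 0.164 and 0.254), and 2 of the 6 fell, Cps1 and Apoa1. AF livers 6 and 7 had the lowest sums of activated stellate cell markers among AF mice, 68.3 and 152 CPM. The other AF livers had 228 to 527 CPM. The part of these differences between livers in the Rdh16 and Retsat values was not tested.

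Dhrs3 (ENSMUSG00000066026, chr4:144892827-144928209, plus strand) encodes a retinal reductase that turns retinal back into retinol. It had 88.9, 99.3, 65.8, 63.8 and 67.8 CPM in PF livers 1 to 5, and 51.6, 78.3 and 103 CPM as lowest, median and highest values in AF livers. The ranges nearly coincided. The means were 77.1 CPM in PF (coefficient of variation 20.7%, n = 5) and 78.9 CPM in AF livers (coefficient of variation 21.0%, n = 7), with a log2 fold change of 0.03 and a 95% interval from −0.32 to 0.39 (edgeR, adjusted p = 0.886). This interval leaves room for a change of up to 1.31-fold.

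Cyp26a1 (ENSMUSG00000024987, chr19:37697798-37701536, plus strand) encodes the main hydroxylase by which liver clears retinoic acid and is itself a direct target of retinoic acid. PF livers 1 to 5 had 6.99, 9.24, 9.84, 9.005 and 5.61 CPM. AF livers 1 to 7 had 1.89, 15.2, 2.13, 3.35, 1.31, 4.84 and 2.64 CPM. So 6 of 7 AF livers were below all PF livers, and AF liver 2 was above all of them. The means were 8.14 ± 1.77 CPM (SD, n = 5) and 4.48 ± 4.88 CPM (SD, n = 7), with a coefficient of variation of 21.8% in PF and 109% in AF livers. The log2 fold change was −0.87 (SE 0.512, 95% interval −1.97 to 0.23) and did not pass (edgeR, adjusted p = 0.188). Without AF liver 2 it was −1.62, with an edgeR adjusted p of 0.00163. The exact permutation test on log2 values, which weighs a single high liver less, gave a difference of −1.28 and p = 0.0404 with all livers, without adjustment for the 9 genes. This p was not under 0.05 on library totals (exact permutation p = 0.0795), nor without any 1 of PF livers 1 to 4 (0.0576 to 0.0758) or of AF livers 1, 3, 4, 5 and 7 (0.0541 to 0.0671).

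Set beside Lrat in the same liver, Cyp26a1 differed between the groups without overlap. The log2 ratio of Cyp26a1 to Lrat was −1.18 to −0.62 in PF and −4.68 to −1.61 in AF livers, with means of −0.89 and −3.26. AF liver 2, which had the most Cyp26a1, also had the most Lrat. Lrat alone already separated the groups without overlap, so the separation of this ratio is not a further result. The ratio was picked after the values were seen and is given without a test.

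Cyp26b1 (ENSMUSG00000063415, chr6:84571414-84593908, minus strand) encodes a relative of Cyp26a1 that clears retinoic acid in many other tissues. It had 2.90, 17.8, 1.88, 2.28 and 0.181 CPM in PF livers 1 to 5, the last of these from 4 reads. AF livers had 1.61, 4.59 and 11.4 CPM as lowest, median and highest values. The highest and the lowest of the 12 values were both in PF livers, and all AF livers lay between them. The means of 5.02 ± 7.24 CPM (SD, n = 5) and 4.94 ± 3.30 CPM (SD, n = 7) gave a log2 fold change of −0.02 with a 95% interval from −1.63 to 1.59 (edgeR, adjusted p = 0.983). Without PF liver 2 the log2 fold change was 1.44 (edgeR, adjusted p = 0.0961), so that no direction can be read from these livers.

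Rarb (ENSMUSG00000017491, chr14:16430839-16819156, minus strand) encodes retinoic acid receptor beta, whose promoter repeat, printed above, is a textbook response element to retinoic acid. Its level was 4.72, 3.16, 4.63, 5.11 and 2.81 CPM in PF livers 1 to 5, and 3.31, 5.87 and 8.70 CPM as lowest, median and highest values in AF livers. Of the AF livers 6 were above all PF livers, and liver 6 was among them. The means were 4.08 ± 1.03 CPM (SD, n = 5) and 6.02 ± 1.66 CPM (SD, n = 7), with a log2 fold change of 0.56 (SE 0.226, 95% interval 0.07 to 1.04). The gene was past the threshold by neither edgeR (adjusted p = 0.0639) nor the exact permutation test (p = 0.0543), and without AF liver 6 edgeR gave 0.66 with an adjusted p of 0.0136. The exact permutation p was 0.00216 without AF liver 6, 0.0394 without PF liver 4, 0.0101 on library totals and 0.121 without PF liver 5. Rarb shares 1793 exon bases with Top2b on the opposite strand, which had 19579 reads in all livers, against 468 in PF and 1319 in AF livers for Rarb, and the strand setting of the counting is not given in the sources used here, so that reads of both may be mixed.

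**Figure D2:**
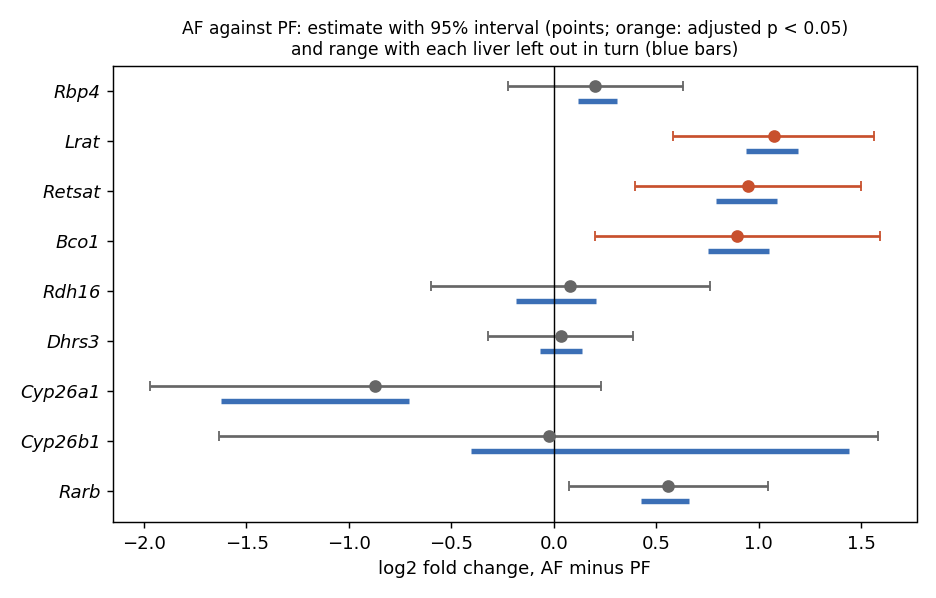
Log2 fold change of each gene, AF minus PF, from edgeR, as a point with its 95% interval (orange where the adjusted p was under 0.05, grey otherwise), and as a blue bar the range of the estimate with each of the 12 livers left out in turn. The bars of Rbp4, Lrat, Retsat, Bco1 and Rarb stay right of 0, the bar of Cyp26a1 runs from −1.62 to −0.70, and the bar of Cyp26b1 runs from −0.40 to 1.44.

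Single livers took different extremes for different genes. Among the AF livers, liver 2 was highest for 5 of the 9 genes (Lrat, Dhrs3, Cyp26a1, Cyp26b1 and Rarb) and liver 6 was lowest for 4 (Lrat, Dhrs3, Bco1 and Rarb). Over the 7 AF livers, all 36 pairs of genes were correlated on log2(CPM + 0.1), with exact two-sided permutation p-values and Benjamini-Hochberg adjustment over the pairs. None passed after adjustment (smallest adjusted p = 0.288), while 5 pairs had an unadjusted p under 0.05. For Retsat and Rdh16, Pearson's r was 0.85 (exact permutation p = 0.0200, adjusted p = 0.288) and Spearman's rho 0.82 (exact permutation p = 0.0341), and r was 0.43 without AF livers 6 and 7, so that the relation rests on these livers. For Retsat and Bco1, r was −0.82 (exact permutation p = 0.0240, adjusted p = 0.288) and −0.73 without AF livers 6 and 7. On library totals, an alternative chosen after seeing the data, the r of these 2 pairs was 0.65 (exact permutation p = 0.105) and −0.66 (exact permutation p = 0.106), and −0.045 and −0.23 without AF livers 6 and 7. The pair with the smallest p was Lrat and Dhrs3, with r of 0.84 (exact permutation p = 0.0167) and rho of 0.68 (exact permutation p = 0.110), and r of 0.64 without AF livers 1 and 6. On library totals its r was 0.90 (exact permutation p = 0.00476, adjusted p = 0.171) and 0.49 without AF livers 6 and 7.

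**Figure D3:**
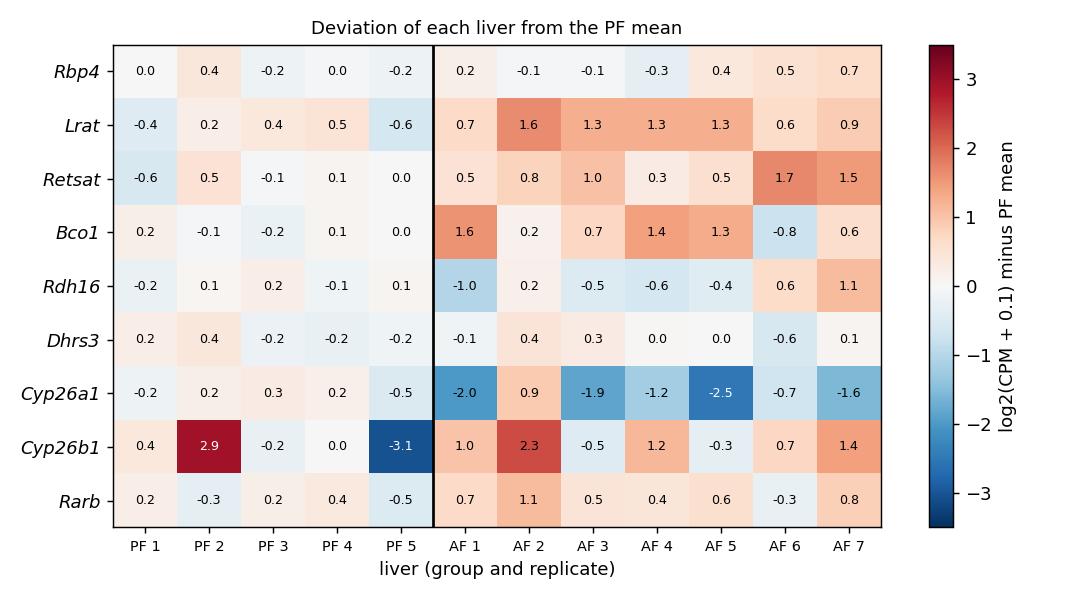
Deviation of each liver (columns) from the PF mean for each gene (rows), as a difference of log2(CPM + 0.1) by colour, with the value printed in each cell (red above, blue below the PF mean). Lrat and Retsat are red in all AF livers, Cyp26a1 is blue in all AF livers but liver 2, and Rdh16 is red in AF livers 2, 6 and 7.

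Genes whose level over the 12 livers was most like that of a retinoid gene were listed by Pearson's r on log2(CPM + 0.1) among the 14167 other genes tested. The groups and library scaling are shared by these points, so r is a description of likeness only. Lrat was nearest to Hmcn1 (r = 0.93), a matrix gene, followed by Wrb and Filip1. Retsat was nearest to Pitrm1 (0.95), Ghdc and Idh2, of which Pitrm1 and Idh2 encode mitochondrial enzymes. Rdh16 was nearest to Gstt1 (0.96), a glutathione transferase, then Sdf4 and Suclg2. Cyp26a1 was nearest to Mup10 (0.92), a major urinary protein, then Cyp21a2-ps and A330044P14Rik. Bco1 was nearest to Mtmr11 (0.94), Jazf1 and Rundc3b, and Rbp4 to Map1lc3a (0.94), D17Wsu92e and Iscu. The nearest genes of Rarb were Klhdc8a (0.91), Acvr1b and Mras. Dhrs3 with Zdhhc24 (0.89), Cenpw and Tfdp2, and Cyp26b1 with 2900089D17Rik (0.85), Pld6 and Atad3aos, had no gene with r above 0.9.

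The other genes of the pathway were read from a list of 64, of which 47 had enough reads. Here 5 rose and 13 fell in AF livers, together 38.3% against 39.8% of all genes tested, with a median log2 fold change of −0.12. Without TMM, on library totals, the whole distribution moved (median of all genes 0.40, against 0.04) and 17 of the list were called higher and 11 lower.

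Of 6 genes listed for carotenoid cleavage, uptake and carriers, 2 fell, 1 of them a carrier, and the others did not pass. Bco2, the oxygenase that cleaves carotenoids off centre and neither an uptake protein nor a carrier, fell from 28.4 to 12.3 CPM (log2 fold change −1.21, edgeR adjusted p = 0.00223). Fabp5, a lipid-binding protein that can carry retinoic acid, fell from 129 to 25.1 CPM (−2.36, edgeR adjusted p = 0.0019). Ttr, the plasma partner of RBP4, with −0.80 (edgeR, adjusted p = 0.0564), did not pass and is named here because of its role, with its value known. Without AF liver 6 or 7 it passed (edgeR, adjusted p down to 0.0219).

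Of 9 genes that make or split retinyl esters, 1 rose and 3 fell. Lpl, the lipoprotein lipase that also acts on the retinyl ester of chylomicrons, rose from 45.1 to 409 CPM, with a log2 fold change of 3.18 (edgeR, adjusted p = 6.67e-04). Pnpla3, a lipase that splits triglyceride and retinyl ester, fell from 3.72 to 0.202 CPM (−4.13, edgeR adjusted p = 4.14e-04). It had 479 reads in all livers together and 0.0372 to 0.375 CPM in AF livers, so the size of this fall rests on few AF reads. Its PF mean was carried by PF liver 3 with 10.96 CPM, and without that liver the PF mean was 1.91 CPM and the log2 fold change −3.17 (edgeR, adjusted p = 6.98e-04). Awat2, an acyltransferase that can esterify retinol, fell from 1.43 to 0.531 CPM (−1.42, edgeR adjusted p = 0.00134), with 277 reads in all livers together. For these 3 genes, named for the size of their change, no AF liver was within the range of the PF livers. Over all genes, 17.7% separated the groups without overlap.

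Of 16 oxidoreductases of retinol and retinal, 1 rose and 5 fell. The calls of Rdh5 and Rdh7 were kept in 6 and 3 of the 12 fits that left out 1 liver, and without PF liver 1, 2 or 3 or AF liver 1, 3 or 5 both were lost, so that 3 fell. Rdh11, a retinal reductase, fell, with means of 139 ± 29.4 CPM in PF (SD, n = 5) and 24.2 ± 1.59 CPM in AF livers (SD, n = 7), a log2 fold change of −2.52 (SE 0.123, edgeR adjusted p = 2.77e-08). Adh4, an alcohol dehydrogenase that also oxidises retinol, fell 3.99-fold, from 205 to 51.3 CPM (edgeR, adjusted p = 0.00115). For both genes, named for the size of their change, no AF liver reached the lowest PF liver, as in 9.49% of all genes. Dhrs9, a dehydrogenase of the same family as Rdh16, rose from 5.26 to 27.9 CPM (2.41, edgeR adjusted p = 0.00865).

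Of 6 genes listed for retinoic acid synthesis, 3 fell and the others did not pass, though Aldh1a3 (0.94, edgeR adjusted p = 0.0677) passed without AF liver 3 or 7. A place in this list does not show activity on retinal, which was not measured. Aox3, an aldehyde oxidase, fell from 628 to 208 CPM (−1.60, edgeR adjusted p = 3.43e-04), and Aldh1a7 fell from 485 to 293 CPM (−0.73, edgeR adjusted p = 0.0159). Aldh1a1, the retinal dehydrogenase with the most reads here, chosen after its value was seen, had 0.05 (edgeR, adjusted p = 0.928). The 1 other gene of retinoic acid breakdown with enough reads, Cyp2c39, did not pass, and Cyp2s1, which had too few reads with all livers, passed as higher in the fit without PF liver 5 and in no other that left out 1 liver. Of 5 nuclear receptors, Rarg rose from 3.17 to 7.67 CPM (1.28, edgeR adjusted p = 0.00272) and the others did not pass. Of 4 target genes, 2 rose, namely the transglutaminase Tgm2 (165 to 323 CPM, 0.97, edgeR adjusted p = 8.88e-04) and the corepressor Nrip1 (16.1 to 25.1 CPM, 0.64, edgeR adjusted p = 0.0126).

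**Figure D4:**
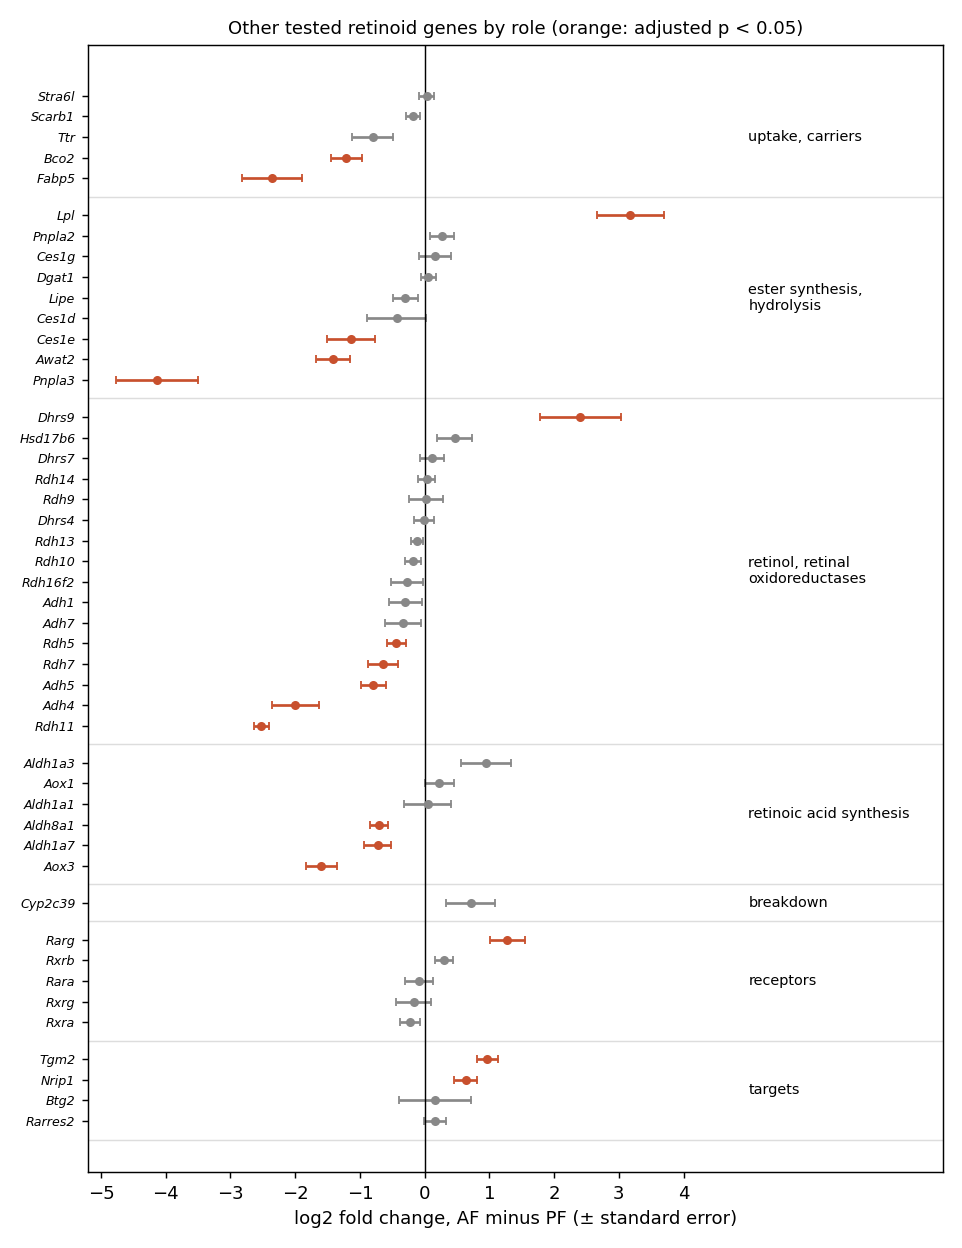
Log2 fold change, AF minus PF, with its standard error, of other retinoid genes tested, all but 1, ordered by role and within a role by size (orange where the edgeR adjusted p was under 0.05). Lpl, at 3.18, and Pnpla3, at −4.13 (−3.17 without PF liver 3), are the ends of the range. The value of Pnpla3 rests on few AF reads.

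Markers of other cells were read in the same way. Of 7 macrophage markers 5 rose, with sums of 598 to 776 CPM in PF and 912 to 2337 CPM in AF livers, led in reads by Cd5l (log2 fold change 1.31) and Clec4f (0.49). The call of Clec4f was kept in 1 of the 12 fits that left out 1 liver, and without PF liver 1 or 2 that of Adgre1 was lost too, so that 3 rose. All 4 tested bile duct markers rose, with sums of 3.25 to 5.33 CPM and 5.25 to 43.6 CPM, led by Epcam (2.76) and Sox9 (1.08). The highest of these sums is that of AF liver 1, and the next AF liver had 26.3 CPM. Of 6 sinusoidal endothelium markers 1 rose, with sums of 123 to 264 CPM in PF and 162 to 276 CPM in AF livers, and the leading Clec4g and Stab2 had −0.05 and 0.21. Pecam1 had 0.38 (edgeR, adjusted p = 0.103), and without PF liver 4 it passed too (edgeR, adjusted p = 0.0307), so that 2 rose. Of 4 T cell markers Cd4 fell (−1.98), Cd3g had −0.38, and the sums were 5.22 to 9.55 CPM and 1.97 to 4.25 CPM. The B cell markers Ms4a1 and Cd79a had −0.99 and −0.97 (edgeR, adjusted p = 0.0676 and 0.0772), with sums over 3 markers of 1.19 to 3.89 CPM and 0.493 to 1.81 CPM. PF liver 5 had the 3.89 CPM and the next PF liver 2.32 CPM, and without PF liver 5 Ms4a1 and Cd79a had −0.59 and −0.72 (edgeR, adjusted p = 0.256 and 0.217). Ms4a1 passed without PF liver 1 or AF liver 5 and Cd79a without AF liver 2 (edgeR, adjusted p down to 0.0392 and 0.0261). The neutrophil markers S100a9 and S100a8 had −1.45 and −1.51 (edgeR, adjusted p = 0.0594 and 0.0584), with sums over 4 markers of 43.9 to 722 CPM and 26.4 to 144 CPM. The highest neutrophil sum is that of PF liver 1 (the next PF liver had 176 CPM), and without this liver S100a9 and S100a8 had −0.35 and −0.38 (edgeR, adjusted p = 0.510 and 0.503). Without PF liver 2 or PF liver 4 both passed (edgeR, adjusted p down to 0.0270 and 0.0280). None of these markers was at 0 in all livers, and their part in the values of the retinoid genes was not tested.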

How the data were processed

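Libraries were made from polyA RNA with a stranded kit and, per the labels' processing notes, handled with FastQC 0.10.1, TopHat2 2.0.13 and HTSeq 0.10.0 on GRCm38. The authors deposited raw read counts per Ensembl gene, without normalization. The annotation and strand setting of the counting are not given in the sources used here. The study's own comparison used Cuffdiff2, which needs alignments, and was replaced by a count test.

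Columns were assigned to mice by group and replicate number. GENCODE release M21 named 54165 of 54232 IDs. No column or row was left out, and 31 pairs of libraries of 1 group were checked for repeated material (lowest chi-square per degree of freedom 21.3). Counts were scaled with TMM, filtered with filterByExpr by group and fitted for all 12 livers without covariates in edgeR 4.0.16 (R 4.3.3, limma 3.58.1, DESeq2 1.42.0), with p-values adjusted over all 14168 genes. The standard error was derived from the F statistic. Permutation tests, correlations and likeness used log2(CPM + 0.1). The main edgeR fit was tested on simulated counts with known fold changes, and the other steps were not. Reads carry no molecular identifiers, so depth limits counting error only.

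The genes of the set and all lists were chosen with earlier results of these data known. Named are the 9 genes, up to 2 genes per direction with the largest change in each role of the wider list, the 2 markers per list with the most reads, and the 3 nearest genes of each. Outside this rule, some genes are named because their call depended on single livers (Rdh5, Rdh7, Aldh1a3, Cyp2s1, Adgre1 and Pecam1). Others are Ttr, Aldh1a1, Cyp2c39, Des, the hepatocyte markers Cps1 and Apoa1, and gene models that overlap a gene of the set. 1 gene of the wider list enters its counts but is neither named nor plotted here. Of 7 hepatocyte markers 6 were found by symbol. Alternatives were DESeq2, RLE factors, library totals, limma-voom (also with weights for sample quality), filters of 1 count or more in any 1 liver or of a mean count of 10, a pseudocount of 1, the replicate number as a block, and each liver left out in turn. The block's comparison fit on the same 10 livers and library totals in the permutation tests and correlations were added after seeing the data.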

Additional observations from a re-analysis of the deposited data

Results flagged for a closer look

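For each of the 9 genes the values of the 5 PF and of the 7 AF livers were examined for a single liver far from the rest of its group. In 2 of these 18 sets of values the gap to the nearest liver, divided by the range of the group, was beyond Dixon's 95% limit. For normally distributed values chance gives about 1 in 20 (0.9 expected). The gaps were taken on linear CPM, and on a log2 scale, where a single high liver weighs less, both are smaller. No excess is therefore read from 2 against 0.9. Cyp26a1 in AF liver 2 had 15.2 CPM, with 4.84 CPM in the next AF liver (gap 0.747 of the range, limit 0.568). Cyp26b1 in PF liver 2 had 17.8 CPM, with 2.90 CPM in the next PF liver (gap 0.846 of the range, limit 0.71).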

How the results depend on the processing

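Lrat and Retsat stayed higher and past the threshold in every alternative fit run, from 0.94 to 1.44 and from 0.61 to 1.25 on the log2 scale. On library totals the median of all genes was 0.40 (0.04 with TMM), 6458 genes were called higher and 938 lower, and 5 of the 9 genes and 17 of the wider list were called higher. Rbp4 was then 0.55, Rarb 0.92 and Cyp26b1 0.35, and relative to that median Rbp4 was 0.15 and Rarb 0.53. With limma-voom 2 of the 9 genes were called higher and 1 of the 9 genes was called lower, Cyp26a1 (−1.40), while Bco1 (0.77) did not pass, Rdh16 was −0.056 and Cyp26b1 0.89. With sample quality weights 1 was called lower, Cyp26a1 (−1.25), Rdh16 was −0.25, Cyp26b1 1.52, and Rarb (0.59) passed. Rarb also passed with DESeq2 (0.54).

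With the replicate number as a block, possible for 10 livers, 2 genes were called lower, Cyp26a1 (−1.38) and Rdh16 (−0.47), and Cyp26b1 was 0.58. Without the block on the same 10 livers 0 were called lower, Cyp26a1 was −0.78, Cyp26b1 −0.035 and Rdh16 −0.43, and Rarb, with 0.63, passed. Over all genes the calls were 3342 higher and 2914 lower with the block and 3613 and 3090 without it. Same-numbered livers correlated at −0.0760 to 0.115 and 1 of 5 was nearest to its own number. Expression thus showed no pairing by number, but it cannot tell whether same-numbered mice were fed as pairs.

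With each liver left out in turn, 2 to 4 of the 9 genes were called higher and 0 to 1 lower. Log2 fold changes ran from −0.19 to 0.21 for Rdh16, −0.067 to 0.14 for Dhrs3, 0.75 to 1.05 for Bco1, −1.62 to −0.70 for Cyp26a1, −0.40 to 1.44 for Cyp26b1 and 0.42 to 0.66 for Rarb. In the permutation test the difference of Rdh16 was −0.09, and 0.26 on library totals, −0.29 to 0.069 with a liver left out, and that of Dhrs3 ran from −0.042 to 0.12. Where a result depended on a setting, the cause was not tested. The lowest count behind any value of the 9 genes was 4 reads, for Cyp26b1 in PF liver 5, and Rarb had 62 to 245 reads per liver.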
